A study of Mus musculus with 19 samples.

Results

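RNA polymerase III makes short RNAs that are not translated. Measured here were 8 of them in the mouse, Rn7s1, Rn7s2, Rn7sk, Rmrp, Rpph1, Rny1, Rny3 and Vaultrc5. They were chosen by name, with earlier results of these data known. Each was taken as the summed TPM (a length-scaled share of a library's RNA, in which all transcripts of a library sum to 1000000) of its annotated transcripts, among 54118 genes summed in the same way. Rn7s2 had no value of its own, and its annotated transcript has the same bases as that of Rn7s1. The value called Rn7s1 below therefore stands for a sequence that both genes carry, and 7 of the 8 have a value. All 7 passed the filter on low values (3 or more libraries with a TPM of 1 or more), as 14971 genes did.

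The study compared mouse embryonic stem cells (mESC) with epiblast-like cells (EpiLC) to ask whether TET3, an enzyme that oxidises 5-methylcytosine, is needed for the step between these states. There were 19 libraries in 6 groups. Wild-type XX mESC (3 libraries) and wild-type XX EpiLC (3) came from the line LF2, XX Tet3-/- mESC (4, mutants #1 to #4) and XX Tet3-/- EpiLC (3, mutants #1, #3 and #4) also from LF2, and wild-type XY mESC (3) and XY EpiLC (3) from the line E14. All mESC were kept in N2B27 medium with LIF and inhibitors of GSK3 and MEK1/2, and all EpiLC were obtained by 5 days of culture without LIF but with Activin A and FGF5. Each sex is 1 cell line here, so sex and line cannot be told apart. The labels do not say that replicates came from separate cultures, so p-values measure the spread between these libraries, which may be technical. Libraries were made from 200 ng of total RNA with a RIN of at least 9, depleted of ribosomal RNA and not selected for poly(A), and such libraries keep RNAs without a tail.

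Most of these RNAs work inside a particle with proteins. 7SL RNA, the product of Rn7s1 and Rn7s2, is the core of the signal recognition particle, which brings ribosomes making secreted and membrane proteins to the endoplasmic reticulum. 7SK RNA (Rn7sk) holds the elongation kinase P-TEFb in an inactive state. Rmrp and Rpph1 are the RNAs of the related enzymes RNase MRP and RNase P, which cut ribosomal RNA precursors and transfer RNA precursors. The Y RNAs Rny1 and Rny3 bind the Ro60 protein, and the vault RNA Vaultrc5 is part of vaults, large hollow particles of the cytoplasm.

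The sequences of 5 members are given as the GENCODE M21 transcripts on GRCm38, 5′ to 3′ and written with T for U. They are shown because Rn7sk, Rmrp and Rpph1 carry results described below, and because shared bases decide how far reads can be told apart. Rn7sk is at chr9:78175303-78175633, minus strand, and the capitals mark each GATC in its first 300 bases of 331, which are shown. Rmrp is at chr4:43492783-43493063, minus strand, where 2 nested transcripts are annotated, and the capitals mark the bases of the longer one (281 bases) that the shorter one (271 bases) lacks. Rpph1 is at chr14:50807449-50807767, minus strand, and the capitals mark runs of at least 8 bases that Rmrp also holds, in its first 300 bases of 319, which are shown. Rny1 is at chr6:47788069-47788180, minus strand, and Rny3 at chr6:47781624-47781725, plus strand, and in both the capitals mark runs of at least 8 bases that they share.
Rn7sk: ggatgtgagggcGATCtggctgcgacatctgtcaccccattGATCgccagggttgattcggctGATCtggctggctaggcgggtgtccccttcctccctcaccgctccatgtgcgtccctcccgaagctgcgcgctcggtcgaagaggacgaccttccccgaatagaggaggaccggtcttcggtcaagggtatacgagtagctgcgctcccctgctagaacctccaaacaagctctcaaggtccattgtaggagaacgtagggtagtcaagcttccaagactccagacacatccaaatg
Rmrp: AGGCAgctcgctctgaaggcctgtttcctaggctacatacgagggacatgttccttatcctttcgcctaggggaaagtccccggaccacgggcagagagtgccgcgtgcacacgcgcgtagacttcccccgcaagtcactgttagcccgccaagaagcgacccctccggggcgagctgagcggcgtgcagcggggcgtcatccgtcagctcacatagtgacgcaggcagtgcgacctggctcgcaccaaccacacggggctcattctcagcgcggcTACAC
Rpph1: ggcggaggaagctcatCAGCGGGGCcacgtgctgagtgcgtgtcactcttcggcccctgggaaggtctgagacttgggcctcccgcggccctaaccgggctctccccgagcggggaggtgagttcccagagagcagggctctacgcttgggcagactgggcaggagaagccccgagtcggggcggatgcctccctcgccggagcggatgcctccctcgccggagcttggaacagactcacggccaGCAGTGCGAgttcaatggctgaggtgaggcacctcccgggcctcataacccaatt
Rny1: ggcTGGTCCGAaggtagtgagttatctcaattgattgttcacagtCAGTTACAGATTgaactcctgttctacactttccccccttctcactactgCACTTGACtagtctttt
Rny3: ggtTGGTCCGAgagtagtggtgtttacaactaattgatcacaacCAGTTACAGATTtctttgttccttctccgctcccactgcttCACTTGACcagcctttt

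Each of these transcripts is the whole gene, with no intron. Rn7sk holds GATC at positions 13, 42 and 64, counted from its 5′ end, and 4.09% of the 11793 annotated transcripts of 100 to 350 bases hold GATC as often or more. The runs that Rny1 and Rny3 share are 8, 12 and 8 bases long. Both Y RNAs end in TTTT, the kind of run at which RNA polymerase III stops, as does Vaultrc5 (chr18:36801866-36802008, plus strand, 143 bases). This ending is found in 4.31% of transcripts of 100 to 350 bases. The letters GTTCNANNC, searched along the RNA strand alone as the B box of an internal promoter, are found once each in Rny1 and Vaultrc5 and in 3.67% of transcripts of that length. None of the other members holds them, which says only that these letters are not in the transcript.

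A large share of each library's TPM came from these 7 values. Together they held from 34.4% to 58.2% of TPM, with a median of 49.5%, while 21806 protein-coding genes held from 22.8% to 49.6%. Among all genes Rn7s1 ranked 1st by mean share (33.7%), Rn7sk 2nd (10.7%), Rmrp 4th (1.83%) and Rpph1 5th (1.30%). The other members were far lower. Rny1 ranged from 91.8 to 704 TPM, Vaultrc5 from 5.29 to 106 TPM and Rny3 from 0 to 24.4 TPM. Every other gene annotated as misc_RNA together held from 0.0179% to 0.0755%. TPM divides by an effective length, so for RNAs this short the level against longer genes depends on the fragment length that was assumed. Levels are compared below mainly between libraries. Levels against protein-coding genes and ratios of members, also given below, share this limit. Whether fragment lengths differed between libraries was not tested, and comparisons between libraries depend on that as well.

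**Figure D1:**
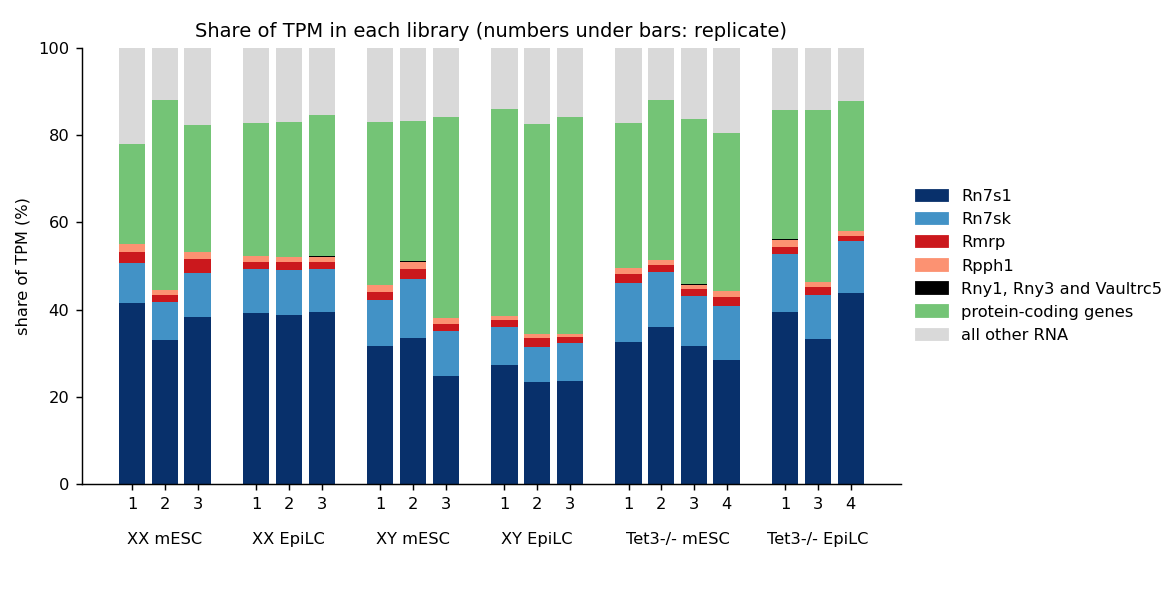
Share of TPM (%, y axis) held by each RNA, by protein-coding genes and by all other RNA in each of the 19 libraries (x axis, replicate numbers under the bars). In XY EpiLC the members hold from 34.4% to 38.6% and protein-coding genes from 47.4% to 49.6%; in XX EpiLC the members hold from 52.2% to 52.3%.

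Because the members hold so much of the TPM, 2 scales were used. On the TPM scale a value is a share of all RNA measured. On the protein-coding scale it is TPM per 1000000 TPM of genes annotated as protein-coding, taken as a measure of messenger RNA. That sum includes mitochondrial genes and repeat-like genes such as Gm10800. The repeat-like genes held from 0.173% to 5.84% of TPM, so the scale is not a level against messenger RNA alone. Differences are in log2(value + 1), fitted with limma to all 19 libraries and all tested genes, and called at a Benjamini-Hochberg adjusted p under 0.05. The median log2 difference of all tested genes was not 0. On the TPM scale the XX transition (EpiLC minus mESC) had 0.14, the XY transition 0.54 and the Tet3-/- transition -0.13, and the value was -0.59 for XX minus XY in EpiLC. On the protein-coding scale the same medians were 0.15, 0.29, -0.03 and -0.09. In bulk samples, fewer cells of a type and less RNA per cell cannot be told apart.

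Before the comparisons, the labels were checked. Tet3 itself was low everywhere, from 0.532 to 0.916 TPM in Tet3-/- mESC against 0.536 to 1.06 TPM in XX mESC, and from 0.693 to 1.42 TPM in Tet3-/- EpiLC against 1.21 to 1.90 TPM in XX EpiLC. Which part of the gene was deleted is not stated in the sources used here, so these levels neither check nor contradict the genotype. The summed TPM of 5 naive markers (Klf4, Zfp42, Esrrb, Tfcp2l1 and Nanog) was 285 to 697 in mESC and 26.5 to 91.3 in EpiLC. Formative markers (Fgf5, Otx2, Dnmt3b and Pou3f1) summed to 250 to 317 TPM in XY EpiLC, 38.8 to 46.2 TPM in XX EpiLC and 41.3 to 146 TPM in Tet3-/- EpiLC, against at most 29.3 TPM in mESC. Otx2 did not rise with this sum in LF2 cells. Its mean was 18.9 TPM in XX mESC and 11.0 TPM in XX EpiLC, and 20.6 and 17.0 TPM in Tet3-/- mESC and EpiLC. In the XY line its mean was 1.74 TPM in mESC and 62.6 TPM in EpiLC. Of the general pluripotency markers, mean Sox2 was 73.0 TPM in XX mESC and 15.8 TPM in XX EpiLC. It was 90.4 and 3.18 TPM in the XY line, and 103 and 7.02 TPM in Tet3-/- cells. Mean Pou5f1 was 296 and 213 TPM in XX, 423 and 394 TPM in XY, and 301 and 217 TPM in Tet3-/- mESC and EpiLC. Feeder fibroblast markers (Col1a1, Col1a2, Col3a1, Lum and Dcn) summed to at most 2.00 TPM, and extraembryonic endoderm markers (Gata6, Gata4, Sox17 and Foxa2) to 5.77 to 6.10 TPM in XY EpiLC, under 1 TPM in each XX EpiLC library, 0.246 to 0.483 TPM in XY mESC and at most 11.9 TPM in the others. One XX mESC library (replicate 2) stood apart with 43.6% of TPM in protein-coding genes, against 22.8% and 29.1% in the other XX mESC libraries, and mutant #3 of the Tet3-/- EpiLC with 39.2% against 29.7% in each of the other mutants. These 2 libraries were singled out after the data were seen, by a share that shrinks as the members' share of TPM grows. Calls of members that appear without them are named below and are descriptive only.

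The member with the most RNA was 7SL, read as Rn7s1. It held 41.6%, 33.0% and 38.4% of TPM in XX mESC and 39.3%, 38.9% and 39.5% in XX EpiLC. In the XY line it held 31.6%, 33.4% and 24.7% in mESC and 27.4%, 23.5% and 23.6% in EpiLC. It held 32.5%, 36.0%, 31.8% and 28.5% in Tet3-/- mESC (mutants #1 to #4) and 39.4%, 33.4% and 43.7% in Tet3-/- EpiLC (#1, #3 and #4). The 3 XY EpiLC libraries lay below every XX library and below every Tet3-/- library, and they overlapped the XY mESC. Ordered by mean, the groups were XX EpiLC (39.2% ± 0.295, SD, n = 3), Tet3-/- EpiLC (38.8% ± 5.21, n = 3), XX mESC (37.6% ± 4.33, n = 3), Tet3-/- mESC (32.2% ± 3.08, n = 4), XY mESC (29.9% ± 4.58, n = 3) and XY EpiLC (24.9% ± 2.21, n = 3). Libraries of each neighbouring pair in this order overlapped.

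The share held by 7SK (Rn7sk) followed another order. Rn7sk held 9.07%, 8.69% and 10.1% in XX mESC and 9.98%, 10.3% and 9.99% in XX EpiLC. It held 10.6%, 13.5% and 10.3% in XY mESC and 8.55%, 7.83% and 8.63% in XY EpiLC. In Tet3-/- cells it held 13.6%, 12.7%, 11.4% and 12.5% in mESC and 13.4%, 10.0% and 12.1% in EpiLC. The 3 XY EpiLC libraries were the lowest of all 19, and all 4 Tet3-/- mESC libraries lay above all 3 XX mESC libraries. The order of means was Tet3-/- mESC (12.6% ± 0.901, n = 4), Tet3-/- EpiLC (11.9% ± 1.71, n = 3), XY mESC (11.5% ± 1.79, n = 3), XX EpiLC (10.1% ± 0.173, n = 3), XX mESC (9.27% ± 0.704, n = 3) and XY EpiLC (8.34% ± 0.443, n = 3). XY mESC and XX EpiLC, and XX mESC and XY EpiLC, did not overlap, and the other neighbours did.

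Rpph1, the RNA of RNase P, was lowest in XY EpiLC too. It held 1.61%, 1.74% and 1.20% of TPM in XY mESC and 0.941%, 0.839% and 0.744% in XY EpiLC. It held 1.74%, 1.15% and 1.66% in XX mESC and 1.42%, 1.23% and 1.22% in XX EpiLC. In Tet3-/- cells it held 1.37%, 1.23%, 1.03% and 1.27% in mESC and 1.70%, 1.25% and 1.30% in EpiLC. Every library outside XY EpiLC was above the highest of its 3. The order of means was XY mESC (1.52% ± 0.282), XX mESC (1.52% ± 0.320), Tet3-/- EpiLC (1.42% ± 0.244), XX EpiLC (1.29% ± 0.116), Tet3-/- mESC (1.23% ± 0.141) and XY EpiLC (0.841% ± 0.0986), with n = 4 for Tet3-/- mESC and n = 3 for the others.

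Rmrp, the RNA of RNase MRP, was high in XX mESC. It held 2.66%, 1.60% and 3.18% of TPM there and 1.52%, 1.72% and 1.49% in XX EpiLC. It held 1.94%, 2.33% and 1.76% in XY mESC and 1.67%, 2.15% and 1.50% in XY EpiLC. In Tet3-/- cells it held 1.98%, 1.49%, 1.55% and 2.05% in mESC and 1.57%, 1.76% and 0.944% in EpiLC. The lowest value among the XX mESC was that of replicate 2, within the range of the XX EpiLC. Neighbours in the order of means overlapped, from XX mESC (2.48% ± 0.802, n = 3) through XY mESC (2.01% ± 0.290, n = 3), XY EpiLC (1.77% ± 0.336, n = 3), Tet3-/- mESC (1.77% ± 0.287, n = 4) and XX EpiLC (1.58% ± 0.121, n = 3) to Tet3-/- EpiLC (1.42% ± 0.425, n = 3). Of the Rmrp TPM, 14.3% to 39.9% was given to the 281-base transcript. The 2 transcripts differ only by the 10 bases in capitals above, so their split is uncertain and only the sum is used.

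Of the small members, Vaultrc5 differed most between the lines. Its TPM was 73.0, 9.38 and 106 in XX mESC and 68.1, 58.0 and 67.0 in XX EpiLC. It was 25.9, 11.6 and 17.3 in XY mESC and 7.39, 15.3 and 5.29 in XY EpiLC. In Tet3-/- cells it was 21.8, 17.7, 31.2 and 29.5 in mESC and 19.7, 57.8 and 29.8 in EpiLC. The XX EpiLC lay above every XY library, and of the XX mESC only replicate 2 lay among the XY values. Rny1 had mean levels of 336 TPM in Tet3-/- mESC (SD 169, n = 4), 372 in XY mESC (SD 138), 395 in Tet3-/- EpiLC (SD 84.9), 403 in XX mESC (SD 306), 406 in XY EpiLC (SD 199) and 479.6 in XX EpiLC (SD 183), with n = 3 for these 5 groups, and all groups overlapped. Rny3 was above 0 in 10 of the 19 libraries and listed at 0 in the other 9, so its group means carry little information.

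The step from mESC to EpiLC in the XY line went with less Rn7sk and less Rpph1. On the TPM scale these 2 of the 7 members were called, both lower, where 50.5% of all tested genes were called and 9.36% were called lower. Rn7sk fell by 0.45 on the log2 scale (SE 0.12, limma adjusted p 0.00345), and Rpph1 fell by 0.84 (SE 0.18, limma adjusted p 0.000867), each without overlap between the 3 mESC and the 3 EpiLC libraries. How many of all genes did not overlap was not counted. Rn7s1 differed by -0.26 (limma adjusted p 0.0839) and was not called, though without XY mESC replicate 3 it fell by 0.39 (limma adjusted p 0.0140). Under median-of-ratios scaling the Rn7sk call was lost (-1.13, limma adjusted p 0.241). Against protein-coding RNA the same 2 members were called lower, among 49.7% of genes called and 14.8% called lower, with -0.80 for Rn7sk (SE 0.31, limma adjusted p 0.0439) and -1.19 for Rpph1 (SE 0.34, limma adjusted p 0.00854). The other members were between -1.33 and -0.25 on that scale and were not called. The Rn7sk call on the protein-coding scale was lost when any of 5 of the 6 XY libraries was left out (all except XY mESC replicate 3). The members together held 45.8%, 51.1% and 38.1% of TPM in XY mESC and 35.9% ± 2.38 in XY EpiLC (SD, n = 3), where the highest library, at 38.6%, overlapped the mESC. The protein-coding share was 38.5% ± 7.01 in XY mESC and 48.4% ± 1.11 in XY EpiLC (SD, n = 3 each) without overlap, for which an exact 2-sided permutation test gives p = 0.1, the smallest that 3 against 3 allows (adjusted p = 0.35 over 7 comparisons). Formative markers (6.86 to 20.5 TPM in mESC, 250 to 317 TPM in EpiLC) and extraembryonic endoderm markers (0.246 to 0.483 and 5.77 to 6.10 TPM) moved with this transition as well, and their part in the result was not tested.

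**Figure D2:**
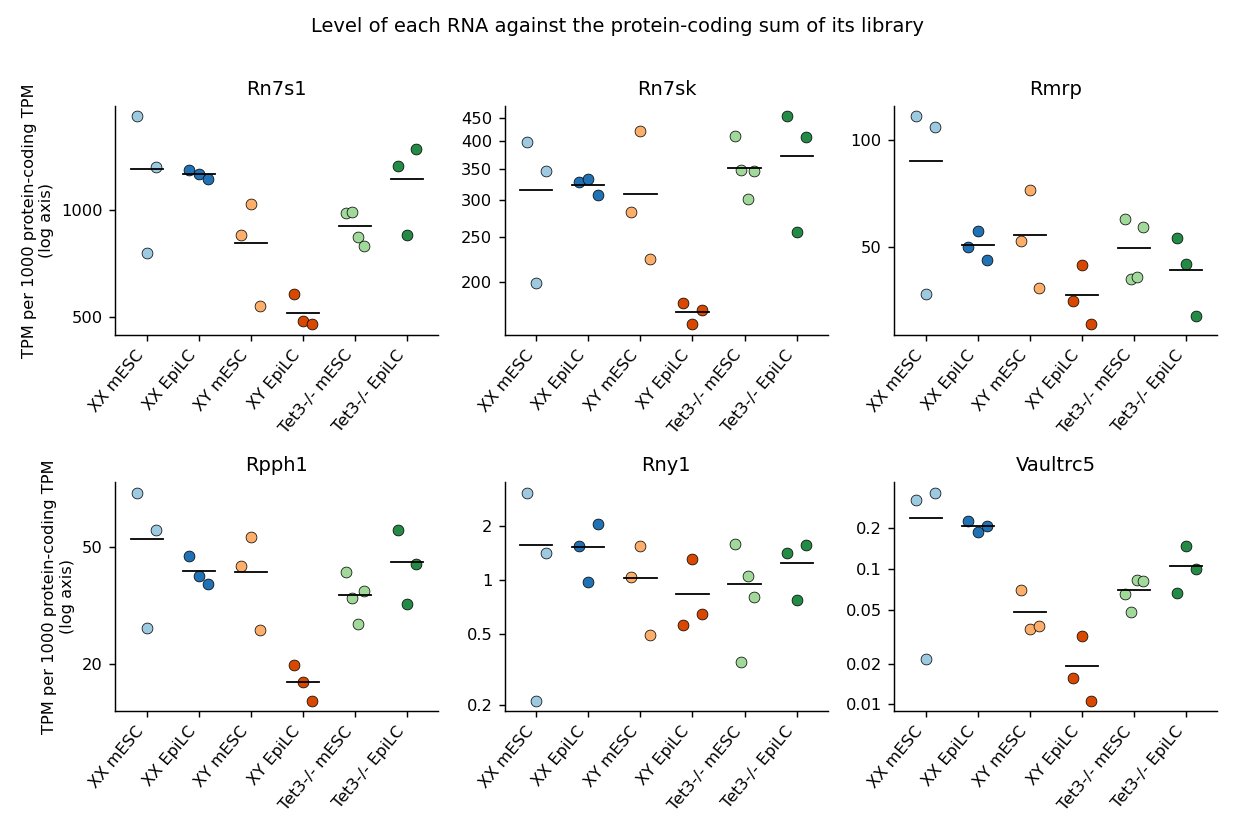
TPM of 6 members per 1000 TPM of protein-coding genes (y axis, log scale) in each library, by group (x axis); points are libraries and lines are group means (n = 4 for Tet3-/- mESC, otherwise 3). For Rn7s1, Rn7sk and Rpph1 the 3 XY EpiLC libraries are the lowest of all groups, except that XY mESC replicate 3 is within the range of XY EpiLC for Rn7s1.

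In the XX lines no member passed the test between the states. Of the 7, 0 were called in the XX transition on the TPM scale, where 31.3% of all genes were called, and 0 on the protein-coding scale, where 44.0% were. At an unadjusted p under 0.05, limma gave 1 member in the XX transition on the TPM scale (Rmrp) and 0 on the protein-coding scale. Rmrp differed by -0.60 (SE 0.24, limma adjusted p 0.0702), and without XX mESC replicate 2 it fell by 0.88 (limma adjusted p 0.00547), and by 1.17 on the protein-coding scale (limma adjusted p 0.00304). Without that library 4832 of the 14971 tested genes were called on the TPM scale. In the Tet3-/- transition 0 members were called on either scale, where 35.1% and 45.5% of genes were, and 1 and 0 had an unadjusted p under 0.05. That 1 was Rn7s1, with 0.27 (SE 0.11, limma adjusted p 0.0782), called at 0.32 without mutant #2 of the mESC (limma adjusted p 0.0444) and at 0.37 without mutant #3 of the EpiLC (limma adjusted p 0.0253). In these fits 4683 and 6610 of the 14971 tested genes were called. Without both libraries that stood apart, Rn7s1, Rmrp (-0.53) and Rny3 (-3.53) were called on the TPM scale (limma adjusted p 0.0142, 0.0398 and 0.0343) and Rny3 alone on the protein-coding scale (-4.92, limma adjusted p 0.0332). On the TPM scale 7450 of the 14971 tested genes were called in that fit. The Tet3-/- EpiLC libraries then left, mutants #1 and #4, were both listed at 0 for Rny3. The size of its differences therefore depends on the 1 added to each value before the log. The members' summed share was 51.0% ± 5.71 in XX mESC and 52.2% ± 0.0817 in XX EpiLC (n = 3 each), and 47.8% ± 3.27 in Tet3-/- mESC (n = 4) and 53.6% ± 6.25 in Tet3-/- EpiLC (n = 3).

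Whether the XX and XY lines took this step differently was tested directly as the difference of their transitions. Of the 7 members 1 was called on the TPM scale, where 16.0% of genes were called and 3.61% were called higher. This was Rn7sk, which differed by 0.12 in the XX transition and by -0.45 in the XY transition, a difference of 0.58 (SE 0.16, limma adjusted p 0.0220). Against protein-coding RNA 0 members were called, where 16.9% of genes were, and the Rn7sk difference was 0.89 (SE 0.44, limma adjusted p 0.191). At an unadjusted p under 0.05 there were 2 members on the TPM scale (Rn7sk and Rpph1) and 0 on the protein-coding scale. Rpph1 was called without XY mESC replicate 3 (0.79, limma adjusted p 0.0409). The Rn7sk call was lost without XY mESC replicate 2, XX EpiLC replicate 2 or XY EpiLC replicate 2 (limma adjusted p 0.0869, 0.0518 and 0.0650), and without a trend in the variance prior (0.0967). The same test for Tet3-/- against XX called 0 members on both scales, where 0.174% and 0.514% of genes were called, and 0 had an unadjusted p under 0.05 on either scale.

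Between EpiLC of the XX and XY lines more members were called than in any of the other 8 comparisons, all of them higher in XX. On the TPM scale 3 of the 7 members were higher in XX EpiLC, where 47.3% of all genes were called, 5.23% as higher and 42.0% as lower. Rn7s1 was 0.66 higher (SE 0.12, limma adjusted p 0.00048), Rpph1 0.62 higher (SE 0.18, limma adjusted p 0.0123) and Vaultrc5 2.78 higher (SE 0.62, limma adjusted p 0.00217). The ratios of mean TPM were 1.58, 1.53 and 6.89. In none of the 3 did the libraries overlap, but the share of all genes without overlap was not counted, so this adds nothing to the calls. Against protein-coding RNA 4 members were higher, where 26.9% of genes were called, 12.9% as higher and 14.1% as lower: Rn7s1 by 1.29 (SE 0.37), Rn7sk by 0.90 (SE 0.31), Rpph1 by 1.25 (SE 0.34) and Vaultrc5 by 3.48 (SE 0.73). Their limma adjusted p were 0.0146, 0.0411, 0.0122 and 0.00192. The ratio of Rn7s1 TPM to the protein-coding sum was 1.25 ± 0.0379 in XX EpiLC and 0.515 ± 0.0558 in XY EpiLC (SD, n = 3 each).

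The number of calls between XX and XY EpiLC depended on single libraries and on the fit. The Rn7s1 call on the TPM scale was lost when these 2 groups alone were fitted (limma adjusted p 0.101) and under median-of-ratios scaling (1.40, limma adjusted p 0.421). On the TPM scale Rn7s1 and Vaultrc5 were called whichever of the 6 libraries was left out, and Rpph1 was lost without XX EpiLC replicate 1 (0.55, limma adjusted p 0.0578) or XY EpiLC replicate 3 (0.53, limma adjusted p 0.0618). Against protein-coding RNA from 1 to 3 members were called when a library was left out. Rn7sk was lost each time (limma adjusted p from 0.0861 to 0.123) and Vaultrc5 was kept each time. Rn7s1 was lost without XX EpiLC replicate 1, XY EpiLC replicate 2 or XY EpiLC replicate 3 (limma adjusted p 0.0512, 0.0579 and 0.0639), and Rpph1 without XX EpiLC replicate 1 or XY EpiLC replicate 3 (0.0513 and 0.0555). With a protein-coding sum of nuclear genes without repeat-like genes, chosen after seeing the data, 2 members were called on that scale. Protein-coding genes held 31.3% ± 1.04 of TPM in XX EpiLC and 48.4% ± 1.11 in XY EpiLC (SD, n = 3 each) without overlap (exact 2-sided permutation p = 0.1, adjusted p = 0.35). Formative markers (4 of 4 with a value) summed to 250 to 317 TPM in XY and 38.8 to 46.2 TPM in XX EpiLC, and the 4 extraembryonic endoderm markers to 5.77 to 6.10 TPM in XY and under 1 TPM in each XX EpiLC library, most of it Foxa2 in XY EpiLC (3.71 ± 0.0839 TPM, against 0.0530 ± 0.0217 in XX, SD, n = 3 each). None of these markers was at 0 in all libraries of either group, and their part in the result was not tested.

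**Figure D3:**
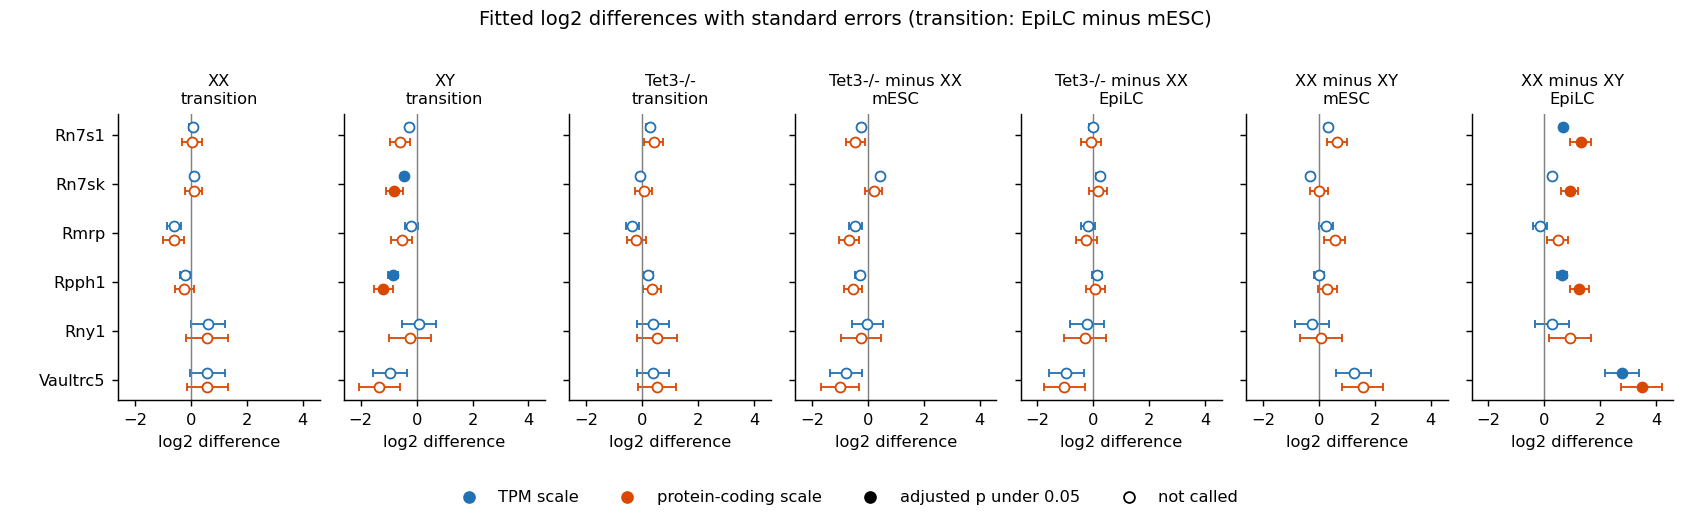
Fitted log2 differences (x axis) of 6 members (y axis) in 7 comparisons, on the TPM scale and on the protein-coding scale; bars are standard errors and filled points have a limma adjusted p under 0.05. Filled points occur in the XY transition (Rn7sk and Rpph1) and in XX minus XY EpiLC, and Rn7sk is filled there on the protein-coding scale alone.

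The lines were also compared as mESC. For XX minus XY 0 of 7 members were called on the TPM scale, where 14.2% of genes were, and 0 on the protein-coding scale, where 24.1% were. The members with an unadjusted p under 0.05 were 2 on the TPM scale, Rn7s1 with 0.34 (SE 0.12, limma adjusted p 0.0742) and Rn7sk with -0.30 and no overlap (SE 0.12, limma adjusted p 0.0962), and 1 on the protein-coding scale, Vaultrc5 with 1.57 (SE 0.73, limma adjusted p 0.135). Values for Rn7s1 and Vaultrc5 turned on XX mESC replicate 2. Without it Vaultrc5 was 2.27 higher in XX mESC on the TPM scale (limma adjusted p 0.00128) and 2.88 higher on the protein-coding scale (limma adjusted p 4.27e-05), and Rn7s1 was 0.43 and 0.99 higher (limma adjusted p 0.0204 and 0.0226). On the TPM scale 3497 of the 14971 tested genes were called without this library. Rmrp was then also called on the protein-coding scale (1.11, limma adjusted p 0.00661), and with mutant #3 of the Tet3-/- EpiLC left out too, Rpph1 was (0.75, limma adjusted p 0.0442). Rn7s1 was also called on the TPM scale without XY mESC replicate 2 (0.42, limma adjusted p 0.0438), where 2597 of the 14971 tested genes were.

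Between Tet3-/- and XX cells no member was called with all libraries in the fit, and calls appeared once XX mESC replicate 2 was left out. In Tet3-/- minus XX mESC 0 of 7 members were called on the TPM scale, where 0.601% of all genes were, and 0 on the protein-coding scale, where 1.04% were. In EpiLC the counts were again 0 and 0, where 1.08% and 4.39% of genes were called. The member nearest to a call was Rn7sk in mESC, with 0.44 on the TPM scale (SE 0.11, limma adjusted p 0.0869), no overlap, and a ratio of mean TPM of 1.35. It was the 1 member with an unadjusted p under 0.05 in mESC on the TPM scale, and there were 0 on the protein-coding scale and 0 on either scale in EpiLC. Rmrp differed by -0.44 and -0.67 in mESC on the 2 scales (limma adjusted p 0.603 and 0.522), and without XX mESC replicate 2 by -0.73 and -1.21, of which the value on the protein-coding scale was called (limma adjusted p 0.0170). Without that library Vaultrc5 was lower in Tet3-/- mESC by -1.81 on the TPM scale and -2.31 on the protein-coding scale (limma adjusted p 0.0307 and 0.00315). On the TPM scale 365 of the 14971 tested genes were called without it, against 90 with all libraries. Without both libraries that stood apart, Rn7sk, Rmrp and Vaultrc5 were called in mESC on the TPM scale (limma adjusted p 0.0267, 0.0260 and 0.00666), and Rmrp, Rpph1 and Vaultrc5 on the protein-coding scale (0.0124, 0.0308 and 0.00124). Calls rose over all genes too, to 2307 of 14971 on the TPM scale, and the number on the protein-coding scale is not given here. In EpiLC Vaultrc5 was then called on the protein-coding scale (-1.32, limma adjusted p 0.0319). Singling out these libraries was a choice made after the data were seen, so calls made without them are descriptive only. A p that misses the threshold does not show that levels were the same.

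A ratio of 2 members within a library does not depend on the scale, and Rn7sk against Rn7s1 set the wild-type XX libraries apart from all others. The ratio of Rn7sk TPM to Rn7s1 TPM was 0.218, 0.263 and 0.262 in XX mESC and 0.254, 0.264 and 0.253 in XX EpiLC. It was 0.334, 0.405 and 0.418 in XY mESC and 0.312, 0.333 and 0.365 in XY EpiLC. In Tet3-/- cells it was 0.419, 0.353, 0.360 and 0.439 in mESC and 0.341, 0.301 and 0.277 in EpiLC. Every wild-type XX library was below every XY and every Tet3-/- library, and the Tet3-/- cells come from the same line as the XX cells. The means were 0.248 ± 0.0256 in XX mESC, 0.257 ± 0.00633 in XX EpiLC, 0.386 ± 0.0450 in XY mESC, 0.336 ± 0.0267 in XY EpiLC, 0.393 ± 0.0427 in Tet3-/- mESC and 0.306 ± 0.0321 in Tet3-/- EpiLC (SD, n = 4 for Tet3-/- mESC and 3 for the others). Among transitions, only the Tet3-/- one had no overlap, with lower ratios in EpiLC. The ratio was chosen after the values were seen and is given without a test.

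The RNAs of the 2 related enzymes also differed against each other. Rmrp against Rpph1 was 1.20, 1.33 and 1.46 in XY mESC and 1.78, 2.56 and 2.02 in XY EpiLC, higher in all 3 EpiLC libraries. It was 1.52, 1.39 and 1.91 in XX mESC and 1.07, 1.40 and 1.23 in XX EpiLC, where the states overlapped by 1 library each. In Tet3-/- cells it was 1.45, 1.21, 1.51 and 1.61 in mESC and 0.923, 1.40 and 0.728 in EpiLC. The XY EpiLC lay above all XX and Tet3-/- EpiLC. Against Rn7s1, Rpph1 was lower in XY EpiLC (0.0338 ± 0.00215) than in XY mESC (0.0507 ± 0.00178) without overlap, and Rmrp was lower in XX EpiLC (0.0402 ± 0.00340) than in XX mESC (0.0651 ± 0.0171) without overlap (SD, n = 3 each). These ratios were chosen after the values were seen and carry no test.

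**Figure D4:**
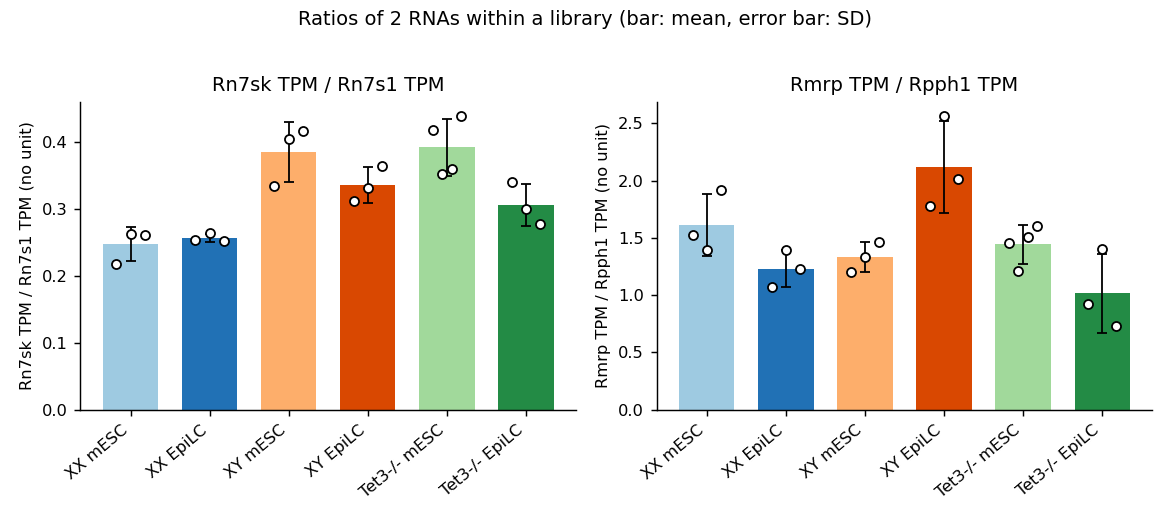
Ratio of Rn7sk to Rn7s1 (left) and of Rmrp to Rpph1 (right) in TPM within each library, by group (x axis); bars are means, error bars SD and points libraries. The XX groups are the lowest for Rn7sk to Rn7s1 (0.248 and 0.257), and XY EpiLC is the highest for Rmrp to Rpph1 (2.12).

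The proteins that bind these RNAs were counted from lists named in the processing section. Of 8 signal recognition particle proteins, 1 was higher and 0 lower in the XY transition on the TPM scale, where 41.1% of all genes were higher, and 0 were called in the XX and Tet3-/- transitions, where 31.3% and 35.1% of all genes were called. Their median log2 difference was 0.07 in the XX, 0.26 in the XY and -0.14 in the Tet3-/- transition, against 0.14, 0.54 and -0.13 over all genes. Srp54b was the one called in XX minus XY EpiLC (1.12, SE 0.30, limma adjusted p 0.00807), with 16.2 ± 0.803 TPM in XX and 7.22 ± 2.79 TPM in XY EpiLC (SD, n = 3 each), and since its copies Srp54a and Srp54c are close in sequence its value is uncertain. Of 6 genes for the 7SK particle and P-TEFb, Larp7, whose protein stays bound to 7SK RNA, was higher in the XY transition (1.06, SE 0.30, limma adjusted p 0.00672), where Rn7sk was lower. Larp7 was also higher in the Tet3-/- transition on the protein-coding scale (0.54, limma adjusted p 0.00453), where Rn7sk differed by 0.05 and was not called. Larp7 was at 54.9 ± 5.25 TPM in XY EpiLC, 26.9 ± 9.96 TPM in XY mESC and 21.8 ± 1.51 TPM in XX EpiLC (SD, n = 3 each). Hexim1, whose protein inhibits P-TEFb on 7SK, was lower in the XY transition on the protein-coding scale alone (-0.76, SE 0.25, limma adjusted p 0.0174).

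Of 11 proteins of RNase P and RNase MRP, 2 were lower in the XX transition, 1 in the XY transition and 3 in the Tet3-/- transition on the TPM scale, and none was higher on either scale in these 3 comparisons. Over all genes 31.3%, 50.5% and 35.1% were called in either direction, and 9.36% were lower in the XY transition. For the XX and Tet3-/- transitions the share called lower was not counted on either scale, so the direction cannot be weighed there. Called or not, 59.9%, 76.7% and 41.0% of all genes had a positive difference on the TPM scale. Against protein-coding RNA 4, 3 and 4 of the 11 were lower. There 44.0%, 49.7% and 45.5% of all genes were called in either direction, and 14.8% were lower in the XY transition. Their medians on the TPM scale were -0.29, 0.43 and -0.45, against 0.14, 0.54 and -0.13 over all genes. Rpp25 was lower in all 3 (-2.13, -2.25 and -2.63, limma adjusted p 0.000596, 0.000217 and 2.8e-05), and it was at 21.5 ± 10.4 TPM in XY mESC and 3.34 ± 0.606 TPM in XY EpiLC (SD, n = 3 each). Rpp21 was lower in the XX and Tet3-/- transitions on both scales and in the XY transition on the protein-coding scale. In XX minus XY EpiLC 5 of the 11 were lower on the TPM scale, near the 42.0% of all genes called lower, with a median of -0.66 against -0.59 over all genes. On the protein-coding scale 2 were lower and 1 higher, where 14.1% and 12.9% of all genes were. Pop1 was the most different of them, at 2.70 ± 0.439 TPM in XX and 12.9 ± 3.34 TPM in XY EpiLC, while Rpph1 was higher in XX.

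Mvp, the protein that forms the shell of vaults, was higher in XX than in XY EpiLC, as Vaultrc5 was. It was at 16.0 ± 2.10 TPM in XX EpiLC and 3.81 ± 0.451 TPM in XY EpiLC (SD, n = 3 each), a difference of 1.82 (SE 0.27, limma adjusted p 5.46e-05). It was the 1 of 3 vault proteins called there on the TPM scale, where 5.23% of all genes were called higher. Mvp was higher in the XX transition (0.72, limma adjusted p 0.0466) and lower in the XY transition (-0.71, limma adjusted p 0.0338), and Vaultrc5 was called in neither (limma adjusted p 0.533 and 0.206). Of the Ro60 and La proteins, Trove2 (Ro60) and Ssb (La) were both lower in XX than in XY EpiLC on the TPM scale (-1.11 and -0.94, limma adjusted p 0.00106 and 0.0298), against a median of -0.59 over all genes, and Trove2 alone on the protein-coding scale. Of all genes 42.0% and 14.1% were called lower there on the TPM and protein-coding scales.

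The polymerase itself was counted from 13 subunit genes and 19 genes for its factors. In XX minus XY EpiLC 9 of the 13 subunit genes were lower on the TPM scale and 5 on the protein-coding scale. Of all genes 42.0% and 14.1% were called lower there. The subunit medians were -1.02 and -0.46, against -0.59 and -0.09 over all genes. Polr3f, Polr3k and Polr3gl were the largest of these differences on the TPM scale, at -1.28, -1.27 and -1.24. Of the factor genes 12 of 19 were lower on the TPM scale, where 42.0% of all genes were, and 0 on the protein-coding scale, where 14.1% were. In the XY transition 4 subunit genes and 10 factor genes were higher on the TPM scale, where 41.1% of genes were, and 4 and 7 on the protein-coding scale, where 34.9% were. No list was tested as a set.

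Other RNAs made by RNA polymerase III were looked up by a short list of gene symbols, which does not cover all of them. Of 7 such genes 4 had a value and 2 were tested and counted. Rprl1 was not counted, since its symbol names 2 Ensembl genes. Rprl3, an RNase P RNA-like gene, was at 962 ± 88.5 TPM in XY EpiLC, 1950 ± 509 TPM in XY mESC and 1818 ± 75.5 TPM in XX EpiLC (SD, n = 3 each). It was lower in the XY transition (-0.99, SE 0.24, limma adjusted p 0.00215) and higher in XX than in XY EpiLC (0.92, SE 0.24, limma adjusted p 0.00577), as Rpph1 was. Whether reads were shared between Rprl3 and Rpph1 was not tested. Bc1 was lower in the XY transition (-1.28, SE 0.35, limma adjusted p 0.00541) and lower in XX than in XY mESC (-1.38, SE 0.35, limma adjusted p 0.0116), where it was at 250 ± 121 and 645 ± 288 TPM. Of 6 counted abundant non-coding RNAs, most of them made by RNA polymerase II, 1 was lower in the XY transition on the TPM scale (Neat1, -1.87, limma adjusted p 0.00312), where 9.36% of all genes were called lower. In XX minus XY EpiLC 1 was higher (Terc, 2.90, SE 1.08, limma adjusted p 0.0358), where 5.23% of all genes were, and its libraries overlapped. Rnu3a and Rnu3b1 were not counted, since each symbol names 2 Ensembl genes.

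The genes whose profile was most like a member's were found over all 19 libraries as the smallest root-mean-square difference in centred log2(TPM + 1) among 8230 genes whose mean TPM was 5 or more. For Rn7s1 they were Gm25939 (0.246), Rpph1 (0.249) and Scarna6 (0.249), and a gene that did not vary at all would be at 0.267. For Rmrp they were Ctsc (0.200), Jmjd7 (0.255) and Scarna2 (0.264), where a flat profile would be at 0.364. For Rn7sk no gene was closer than a flat profile (0.239), the nearest being Pqlc3 (0.240).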

How the data were processed

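RNA of 19 mouse libraries was measured as TPM per transcript, and the deposited table holds 140948 transcripts whose TPM sum to 1000000 in each library. The submitters' processing notes name FastQC 0.11.7, Trimmomatic 0.35, Salmon 1.1.0 and GRCm38, with no further settings, and the transcript set used is not given in the sources used here. The number of reads behind a TPM cannot be had from the table, so depth is unknown, no counting interval is given, and precision rests on the spread between libraries. Columns were mapped to samples by the number in the header, which is the sample description in the labels.

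TPM were summed per gene with GENCODE M21: 139357 transcript IDs were found version included, 495 by the ID alone, and 1096 (0.0454% to 0.215% of TPM) were not found. Of 2410 reference transcripts without a value, 1562 have the same sequence as one with a value, Rn7s2 among them. Annotated genes that share the symbol Rmrp were summed. Reads that fit several copies, such as the many 7SL and 7SK pseudogenes, cannot be checked in TPM.

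limma 3.58.1 (R 4.3.3; eBayes with a trend) was applied to 14971 genes in log2(TPM + 1), all libraries in 1 fit, and again to TPM per 1000000 protein-coding TPM, for 9 contrasts, with Benjamini-Hochberg adjustment per contrast. Fold changes on this scale understate the change of low genes. Shares of TPM were compared by exact permutation (SciPy 1.17.1). On simulated data the fit recovered 31.5% of 1-log2 and 93.5% of 2-log2 changes in the XX transition, and 32.5% and 92% in XX minus XY EpiLC, each for 200 of 14971 genes.

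The named genes are the members and, from each list, at most 3 called genes with the largest change. The lists were signal recognition particle proteins, 7SK particle and P-TEFb, RNase P and RNase MRP proteins, Ro and La, vault proteins, RNA polymerase III subunits, its factors, other RNAs made by it, and abundant RNAs made mostly by RNA polymerase II. Members and lists were chosen with earlier results of these data known. Sequences and positions are from GENCODE M21 (GRCm38), and 1 sequence is not reported here. Alternatives are given in the closing section.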

Additional observations from a re-analysis of the deposited data

Results flagged for a closer look

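The difference between the XX and the XY transition was called for Rn7sk on the TPM scale (0.58, SE 0.16, limma adjusted p 0.0220), and this is a test of the difference itself. Rn7sk differed by 0.12 in the XX transition and fell by 0.45 in the XY transition. No group of 4 libraries held a member value far from the others by Dixon's test at the 95% level, and groups of 3 were not tested.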

How the results depend on the processing

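The fit was repeated with other choices of pseudocount, filter, scaling, samples, trend, replicate block and call rule, and without each library. The direction of each member difference with an unadjusted p under 0.1 held in all of these for which a value could be had, except that quantile normalization sets Rn7s1 and Rn7sk, always ranked 1st and 2nd, to 0 by its construction. Rn7s1 and Rn7s2 summed is the main value, since Rn7s2 has none. Counts of called members moved as follows on the TPM scale. A log2 difference of at least 1 as well left 0 in the XY transition, 1 in XX minus XY EpiLC and 0 in the difference of the XX and XY transitions. Median-of-ratios scaling left 1 in the XY transition and 0 in that difference, and quantile normalization likewise 1 and 0. Median-of-ratios without a trend, eBayes without a trend and TPM rescaled without the members each left 0 in that difference. Under median-of-ratios scaling Rn7s1 in XX minus XY EpiLC was 1.40 (limma adjusted p 0.421), a call that was kept when the trend was left out as well. With the 2 libraries that stood apart left out, an alternative chosen after seeing the data, counts were 1 in the XX, 4 in the XY and 3 in the Tet3-/- transition, 3 in Tet3-/- minus XX mESC, 2 in XX minus XY mESC and 2 in the difference of the Tet3-/- and XX transitions. In the same order 6185, 9432, 7450, 2307, 5500 and 3386 of all 14971 tested genes were called. With all libraries the numbers were 4688, 7561, 5259, 90, 2122 and 26, so calls rose over all genes and not in the members alone. On the protein-coding scale leaving out the same libraries gave 1 in the XX and 1 in the Tet3-/- transition, 3 and 1 in Tet3-/- minus XX in mESC and EpiLC, and 4 in XX minus XY mESC. The numbers over all genes on that scale are not given here. A pseudocount of 0.1, a log2 difference of at least 1 as well, and a protein-coding sum of nuclear genes without repeat-like genes or a median of ratios over protein-coding genes, both chosen after seeing the data, each left 1 in the XY transition, and the last pair left 2 in XX minus XY EpiLC.

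With each library left out in turn, counts on the TPM scale ranged from 0 to 1 in the XX and Tet3-/- transitions and in Tet3-/- minus XX mESC, from 0 to 2 in XX minus XY mESC and in the difference of the XX and XY transitions, from 2 to 3 in XX minus XY EpiLC and from 2 to 3 in the XY transition. On the protein-coding scale they ranged from 0 to 1 in the XX transition, 1 to 2 in the XY transition, 0 to 2 in Tet3-/- minus XX mESC, 0 to 3 in XX minus XY mESC and 1 to 3 in XX minus XY EpiLC. The protein-coding share, in percentage points, ranged from -5.06 to 5.34 in the XX transition (5.34 without XX mESC replicate 2), -0.413 to 9.99 in Tet3-/- minus XX mESC (-0.413 without XX mESC replicate 1) and -1.62 to 3.15 in Tet3-/- minus XX EpiLC (-1.62 without mutant #3). The members' share ranged from -1.98 to 3.36 in the XX transition (-1.98 without XX mESC replicate 2) and -0.953 to 4.90 in Tet3-/- minus XX EpiLC (-0.953 without mutant #4).

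Whether the replicate numbers pair the libraries was not settled. Deviations of same-numbered libraries correlated by -0.05 to 0.07 in XX, -0.04 to 0.24 in XY and -0.02 to 0.30 in Tet3-/-. Those of different numbers correlated by -0.12 to 0.06 in XX, -0.26 to 0.11 in XY and -0.34 to 0.28 in Tet3-/-. With the number as a replicate block, or a block within genotype, Rn7sk was lost on the protein-coding scale, which left 1 in the XY transition (limma adjusted p 0.0753 and 0.0899), and the first of these also lost it in XX minus XY EpiLC (0.0715). The block changed no count on the TPM scale.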
